A study of Drosophila melanogaster with 6 samples.

Results

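Steep boundaries between early- and late-replicating DNA were examined in Kc cells, a line derived from Drosophila melanogaster embryos and labelled female with the genotype se/e. The files hold values for 55900 windows of 10 kb, and 9791 of them lie on a non-overlapping grid along X, 2L, 3L and 3R. Members were chosen by measured values: T, the log2 ratio of Early S to Late S label with 0.1 RPKM added to each, had to differ by at least 4 between the windows 50 kb to either side, and Early S plus Late S had to reach 3 RPKM in both. Of 9380 grid windows with enough label in both flanks, 245 met this rule. They fell into 92 runs of neighbouring windows of the same direction, called transitions here, of which 36 held 1 window and 19 held 5 or more. The size of T at the flanks is therefore a description, whereas Mid S label was not used by the rule and could be tested.

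The study pulse-labelled growing cells with BrdU, a thymidine analogue, at 50 µg/ml for 1 hour and sorted them by DNA content into Early S, Mid S and Late S. Labelled DNA was pulled down with an antibody to BrdU and sequenced, giving 2 libraries per fraction and 6 in all. All 3 fractions come from the same line, labelled WT, with no treatment named other than BrdU, and the cells of a fraction were pooled by the sort. Nothing in the labels says that the replicates came from separate cultures, so a p-value reflects the spread of these libraries alone, and that spread may be technical. The RPKM steps of 1 read imply library totals of 1384200 to 2936097 reads, and the median grid window held 106 to 227 reads. Label is in RPKM, reads per kilobase of window scaled to the reads of the library, so a value is a share of that library and not an amount of DNA.

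In S phase, replication starts at many origins, and neighbouring origins tend to fire at similar times, which divides chromosomes into domains of early and late replication. Between such domains lie timing transitions, which are crossed by forks moving out of the early domain or by origins that fire one after another. In Drosophila cells early domains are known to be rich in active genes and late domains in silent chromatin. A genome of the files' build was not used here, so no sequence or gene is given for these boundaries. The sequence names are those of Release 5 of the genome, the build itself is not given in the sources used here, and coordinates are as in the files, counted from 1.

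In every one of the 245 windows T was above 0 at one flank and below 0 at the other, and the window between had an intermediate T. The rule set the difference of T between the flanks but not its sign at either. The flanks were still chosen by T, so these signs describe the members and are no check of their label. The median T was 2.14 at the early flank, -0.23 in the window itself and -2.39 at the late flank, which is a median change of 4.31 over 100 kb against 1.23 over all 9380 eligible windows. At the early flank, Early S label had medians over members of 15.0 and 16.0 RPKM in replicates 1 and 2, Mid S of 7.67 and 7.47, and Late S of 3.23 and 4.05 (means of the replicates 15.5 ± 0.708, 7.57 ± 0.145 and 3.64 ± 0.576, SD, n = 2). At the late flank the order was turned, with 2.55 and 2.48 RPKM of Early S label, 6.89 and 7.01 RPKM of Mid S label, and then 14.4 and 12.2 RPKM of Late S label. The rule chose the flanks by the ratio of Early S to Late S, while Mid S, which the rule did not use, had medians between those 2 fractions at both. In the member window itself Mid S had the highest medians, 9.39 and 9.24 RPKM, above 7.38 and 7.87 in Late S and 6.57 and 6.08 in Early S. Over all eligible windows the medians were 8.17 and 8.07 RPKM for Mid S, 7.59 and 7.80 in Late S and 6.98 and 6.71 in Early S. The sum of the 3 combined fractions did not peak in the member window: its median was 27.3 RPKM at the early flank, 24.3 in the window and 23.2 at the late flank. The flanks rested on few reads in the fraction with least label: at the early flank the median was 60 and 56 reads in the Late S libraries and the lowest was 4 and 2.

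**Figure D1:**
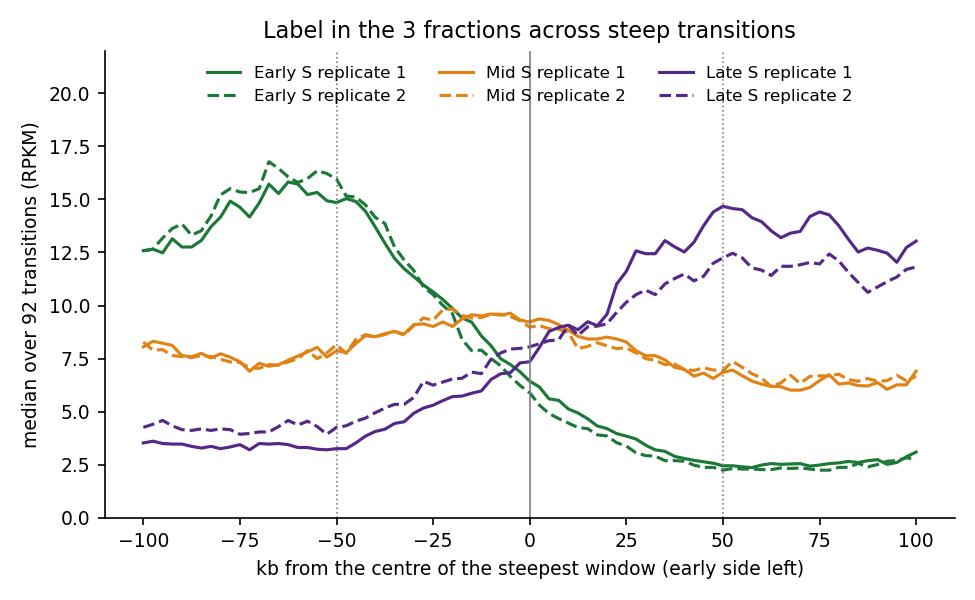
Median label over the 92 transitions (RPKM, vertical axis) against distance from the centre of the steepest window in kb, turned so that the early side is on the left; solid and dashed lines are replicates 1 and 2, and dotted lines mark the flanks at 50 kb that chose the members. Early S falls and Late S rises across the centre. Mid S is highest on its early side, with 9.64 RPKM at -5 kb in replicate 1 and 9.84 at -20 kb in replicate 2. At 0 kb Mid S is 9.23 and 8.98 RPKM, against 7.87 and 8.15 at the early flank and 6.85 and 6.94 at the late flank.

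All 4 arms held such transitions, and both orientations occurred on each. 3R had 80 member windows in 27 transitions, X had 69 in 27, 2L had 65 in 23 and 3L had 31 in 15. As a share of eligible windows this was 3.27% on X, 2.98% on 2L, 2.91% on 3R and 1.33% on 3L, or 1.20, 0.999, 0.967 and 0.611 transitions per Mb. The early side lay at the lower coordinate in 41 transitions and at the higher in 51. On X the early side was more often at the lower coordinate (16 of 27), and on 3R more often at the higher (18 of 27). Neither these counts nor the gaps between arms have a replicate to test them against, since each arm was read once per library.

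Some steep transitions lay in facing pairs close to each other. Among neighbours on an arm, 30 pairs had their late sides facing and 28 their early sides. Of each kind 14 lay less than 500 kb apart, measured between the points where Early S equals Late S. The median distance was 524 kb between facing late sides and 526 kb between facing early sides, and the longest were 4612 and 3146 kb. Label between the transitions of a pair was not examined, so shallower changes may lie there. The shortest distance between facing late sides was 98.6 kb on X, from 16044110 to 16142672. Between facing early sides it was 113 kb on 2L, from 807429 to 920093. Next to that pair, facing late sides lay 215 kb apart, from 592507 to 807429, so 3 steep transitions followed each other there. A further 30 neighbouring pairs ran in the same direction. An opposite change that did not meet the rule may lie between them, or 1 change may be made in 2 steps. In 1 such pair on 3R the 2 runs shared the point 10885012 and are parts of one boundary.

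The steepest transition lay on 3R in the window from 25170001 to 25180000, within a run of 7 windows with its early side at the lower coordinate. At its early flank Early S label was 19.99 and 21.3 RPKM in the 2 replicates, Mid S 5.21 and 6.46, and Late S 1.99 and 1.52. At its late flank Early S was 2.35 and 1.80 RPKM, Mid S 6.46 and 7.01, and Late S 17.8 and 12.2. Early S and Late S were far apart at both flanks, and T went from 3.45 to -2.79, a change of 6.24 (6.13 and 6.43 in the replicates alone). In the window itself Mid S was above both others, at 10.3 and 8.78 RPKM against 7.08 and 5.23 in Early S and 5.82 and 5.996 in Late S. A facing transition of the same arm, from 25520001 to 25530000, was the fourth steepest with a change of 5.38. There Early S was 16.2 and 14.7 RPKM at the early flank and 1.77 and 2.17 at the late flank, while Late S went from 2.75 and 2.02 to 14.8 and 11.7. The late sides of these boundaries faced each other, and Early S equalled Late S at 25178459 and at 25533562.

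The next steepest transitions after the first lay on X. From 20850001 to 20860000 the change was 5.75, with the early side at the higher coordinate, and T went from 1 to -1 within 8.20 kb, less than the width of 1 window and the shortest such distance in the combined files, with 13.4 kb in replicate 1 and 7.16 kb in replicate 2. That passage lay around 20874756, on the early side of the window. On the other side, at 22.5 kb from the window centre, label of all fractions was low: Mid S held 1.46 and 1.46 RPKM and Late S 3.61 and 3.18. From 13350001 to 13360000 the change was 5.52, with Early S at 20.6 and 20.3 RPKM at the early flank and 2.59 and 3.22 at the late flank. Here too all fractions dipped near the centre, to 2.96 and 3.17 RPKM of Early S, 5.28 and 6.01 RPKM of Mid S label, and 4.36 and 5.13 RPKM of Late S. The cause of these dips was not tested.

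**Figure D2:**
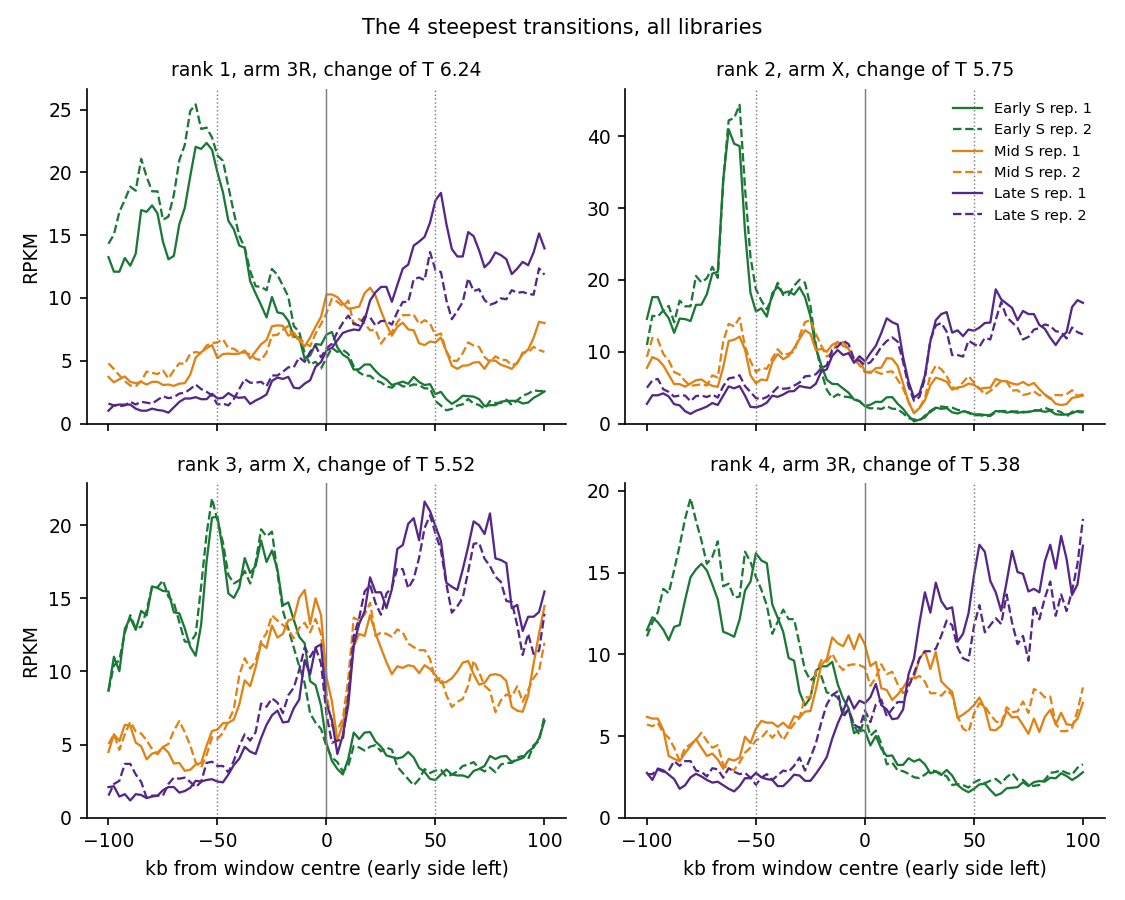
Label (RPKM, vertical axis) in each library along the 4 steepest transitions against distance from the window centre in kb, early side left; colours are fractions, and solid and dashed lines are replicates 1 and 2. In both transitions of 3R Mid S lies above the other fractions near the centre, and in both of X all fractions dip together within 25 kb of the centre.

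The largest change on 2L was 5.26, from 11960001 to 11970000, where Early S was 14.4 and 18.4 RPKM at the early flank and 2.15 and 2.59 at the late flank. In the opposite direction the largest on 2L was 5.10, from 5360001 to 5370000, with lower label throughout: Early S was 9.57 and 9.98 RPKM at the early flank and Late S 8.40 and 4.98 at the late flank. On 3L the largest was 5.06, from 15460001 to 15470000, where Late S was 2.85 and 4.62 RPKM at the early flank and 10.1 and 11.5 at the late flank. Facing the other way on 3L, the window from 19130001 to 19140000 had 4.48. The remaining transitions among the 10 steepest had changes of 5.36 (X, from 9400001), 5.16 (3R, from 22110001), 5.14 (3R, from 19200001) and 5.12 (2L, from 8900001).

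The transition from 19200001 on 3R differed from the others in its early flank. That flank, from 19150001 to 19160000, held 85.7 and 108 RPKM of Early S label, 18.2 and 25.6 of Mid S and 10.9 and 17.0 of Late S, and its combined Early S value of 94.2 RPKM was the highest of all windows in the file. The window before it held 50.7 and 63.7 RPKM in Early S and the window after it 16.6 and 18.2, so the peak spanned few windows. Of all members, 1 used this window as a flank. Its change of T is a ratio and was 5.26 and 5.15 in the replicates, and the Mid S tests given further on for this transition use the bright flank.

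At the edge of the rule, the 2 windows just inside the threshold had changes of 4.0049 (3L, from 22660001) and 4.0056 (2L, from 2710001). The 2 just outside had 3.9992 (2L, from 11980001) and 3.9954 (3R, from 6980001). In the replicates alone, the outer pair had 4.19 and 3.88 on 2L and 3.98 and 4.15 on 3R, and the inner pair 4.00 and 4.05 on 3L and 3.77 and 4.38 on 2L. The threshold thus cut through a continuous range.

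The change across the transition was seen in each replicate, though the combined files that chose the members contain both. In all 245 windows the direction was the same in replicates 1 and 2 and the change was at least 3 in both. It was at least 4 in 229 windows in replicate 1, in 168 in replicate 2 and in 152 in both. The median change was 4.54 in replicate 1, with a range of 3.22 to 6.13, and 4.18 in replicate 2, with a range of 3.29 to 6.43. Replicate 1 had the larger change in 179 of 245 windows. The Late S libraries differed in the same sense, since Late S replicate 2 had more label than replicate 1 at the early flank and less at the late flank in the medians given above. Applied to each replicate alone, the rule found 338 windows in replicate 1 and 214 in replicate 2, with 152 in common, which is 45.0% of the first and 71.03% of the second. With the Late S value taken from 1 library and Early S combined, it found 157 windows without Late S replicate 1 and 379 without Late S replicate 2. With Early S from 1 library and Late S combined, it found 339 without Early S replicate 1 and 228 without Early S replicate 2. Over all eligible windows the change of T had a Pearson's r of 0.957 between replicates, across windows that share flanks and are not independent.

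**Figure D3:**
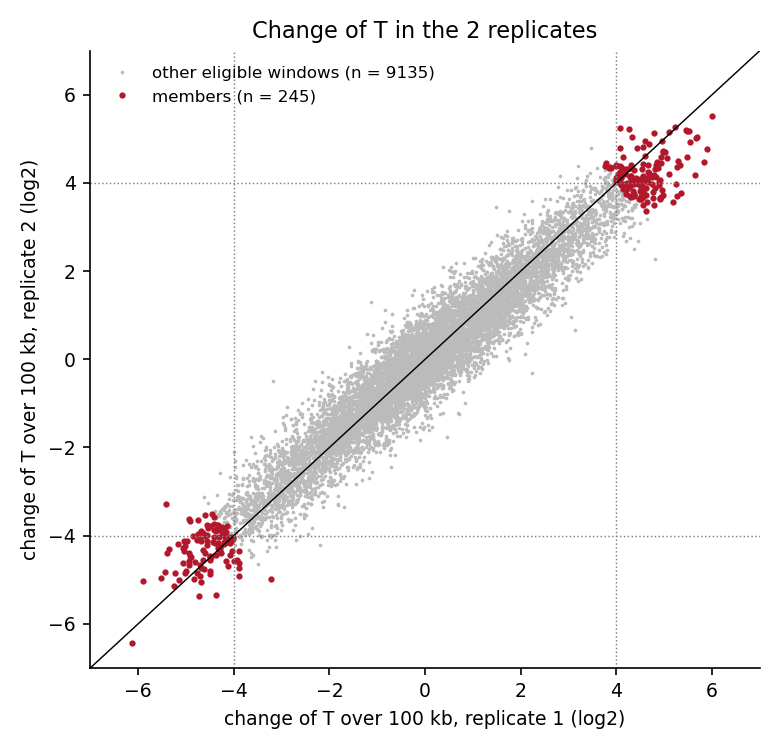
Change of T over 100 kb (log2 scale) in replicate 1 (horizontal axis) and replicate 2 (vertical axis) for 245 members (red) and the other eligible windows (grey); the sign gives the orientation, the line marks equality and dotted lines mark 4. All members lie on the same side of 0 in both replicates, and 152 lie beyond 4 in both.

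The slope was measured between the points where T passed 1 and -1, by straight lines between windows spaced 2.5 kb apart. Since each window is 10 kb wide, distances under that width are not resolved. The median distance was 33.6 kb over the 87 transitions where both points were found, with quartiles of 29.0 and 40.7 kb and a range of 8.20 to 68.9 kb. It was 32.0 kb in replicate 1 and 33.9 kb in replicate 2. The longest distance was at the 3R transition with the bright flank, from 19200001.

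The point where Early S equals Late S was found in both replicates for all 92 transitions and differed between them by a median of 4.23 kb. The shift was at most 2.5 kb in 34 transitions, at most 5 kb in 52 and at most 10 kb in 75. The smallest shift, 0.0952 kb, was on X in the window from 9400001. Shifts under 10 kb are below the window width and rest on interpolation. The largest values were 20.4 kb on X from 13910001, 19.8 kb on 2L from 930001 and 15.3 kb on 3R from 9220001. The first is no displacement of a boundary: in replicate 1 the point at 35.0 kb lay in a window listed at 0 RPKM in all 3 fractions. This was the case for 1 of the 92 transitions, and without it the median shift was 4.20 kb. In replicate 2 the point lay nearer the early side in 68 transitions and nearer the late side in 24, with a median displacement of -2.79 kb, where negative values run toward the early side. The higher Late S label of replicate 2 at the early flank moves with this; its part in the displacement was not tested.

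Mid S label was tested in 3 ways, by limma with Benjamini-Hochberg adjustment over all positions or windows and a threshold of 0.05, on log2 values. The first test asked whether Mid S differed between the early and the late flank, with no use of Early S or Late S other than to name the sides and to estimate the spread. Of 245 members, Mid S was higher at the early flank in 69 (28.2%) and at the late flank in 54 (22.04%), while 25.6% and 18.4% of all 9626 positions were called in these directions. These shares are near the background. The median difference over members was 0.06, against 0.09 over all positions, and the 2 Mid S libraries had medians of 0.09 and 0.09. With flanks at 30 kb the median was 0.18 over members and 0.07 over all positions. Mid S was then called higher at the early flank in 72 members and at the late flank in 46, against 2124 and 1695 of all 9635 positions. Single transitions were called in both directions: differences ran from -3.31 to 2.68, and the 2 libraries had the same sign in 214 members, the 123 called ones included. Leaving out a Mid S library, which leaves 1, lowered the calls in both directions, in members and over all positions, with medians over members of 0.09 and 0.09.

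Transitions with the largest changes of T differed in this step. On 2L from 8900001, Mid S was 4.35 and 4.39 RPKM at the early flank and 9.85 and 8.18 at the late flank, a difference of -1.03 ± 0.207 (SE, adjusted p 0.000635 in limma). On 2L from 5360001 it was 3.03 and 2.62 RPKM against 6.10 and 4.79, a difference of -0.93 ± 0.236 (SE, adjusted p 0.00401 in limma). Both lay on the side of the late flank, as did X from 13350001 with -0.74 (adjusted p 0.00269 in limma). With flanks at 30 kb none of these 3 passed, and the differences were 0.11, 0.15 and 0.12. With either Mid S library left out, 2L from 5360001 and X from 13350001 did not pass (adjusted p 0.0543 to 0.111 in limma), and 2L from 8900001 did not pass without replicate 1 (adjusted p 0.0663). In the opposite sense, 3R from 19200001 had 1.12 with the bright early flank (adjusted p 0.000782 in limma) and 0.89 with flanks at 70 kb (adjusted p 0.000289 in limma). At 30 kb it had -0.57, a call toward the late flank (adjusted p 0.0133 in limma). Without Mid S replicate 2 it had 0.73 and did not pass. The other 6 of the 10 steepest did not pass with flanks at 50 kb, with differences of -0.38 to 0.19. At 30 kb X from 20850001 passed with 1.00 (adjusted p 6.25e-05 in limma). On 2L from 11960001 the call was -2.52 at 30 kb and 0.85 at 70 kb (adjusted p 3.72e-08 and 0.00457 in limma). At 70 kb 3R from 25520001 passed with -0.62 and 3R from 22110001 with -0.78 (adjusted p 0.0278 and 0.00787 in limma). 3R from 25170001 and X from 9400001 passed at neither distance.

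The second test asked whether Mid S was higher in the member window than in the mean of its flanks, within each library. It was higher in 136 of 245 members (55.5%) and lower in 11 (4.49%), against 20.4% and 16.6% of all 9585 positions. The median difference over members was 0.42 on the log2 scale, with 0.43 and 0.42 in the 2 Mid S libraries, and 0.02 over all positions. It was above 0 in 207 members and in all 147 called members both libraries had the same sign. Of the 92 windows that stand for 1 transition each, 49 (53.3%) were higher and 5 (5.43%) lower. In 23 of these 92 the point where Early S equals Late S lay within the window. It lay -46.2 to 43.0 kb from the window centre, with a median of -4.74 kb, so the window tested is often not at that point. The share of windows called higher was 62.3% of members on X, 55.0% on 3R, 52.3% on 2L and 48.4% on 3L. Neighbouring members share flanks and their calls are not independent, and the difference between the members' share and that of all positions was not tested. The count fell without Mid S replicate 1 and without replicate 2, which leave 1 Mid S library, and so did that over all positions. The median over members was then 0.42 and 0.43. With flanks at 30 kb, in windows nearer the centre, the count fell to 70, against 1503 of all 9607 positions. The median over members was 0.21 there, and 0.02 over all positions.

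Shallower transitions gave the background for this count. With a change of T of 3 to under 4, Mid S was called higher in the window in 34.8% of 871 positions and lower in 9.41%. With 2 to under 3 these shares were 19.9% and 14.9%, and with a change under 1 they were 14.8% and 19.8%. The median difference went from -0.04 at changes under 1 to 0.21 at 3 to under 4 and 0.42 in the members. The share called higher at the early flank went from 16.6% at changes under 1 to 25.8%, 36.0% and 38.8% in the next bins, and was 28.2% in the members. The count was also taken among windows of like T, since T in a member window is often near 0. Of the 142 members with T between -1 and 1 in the window, 65.5% were called higher than their flanks in Mid S, against 23.7% of 3425 other eligible windows with such a T. The match was on T in the window alone. Flanks of members were chosen by the rule, and those of the other windows were not matched to them. The comparison therefore cannot separate the window from its flanks and is no independent control.

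**Figure D4:**
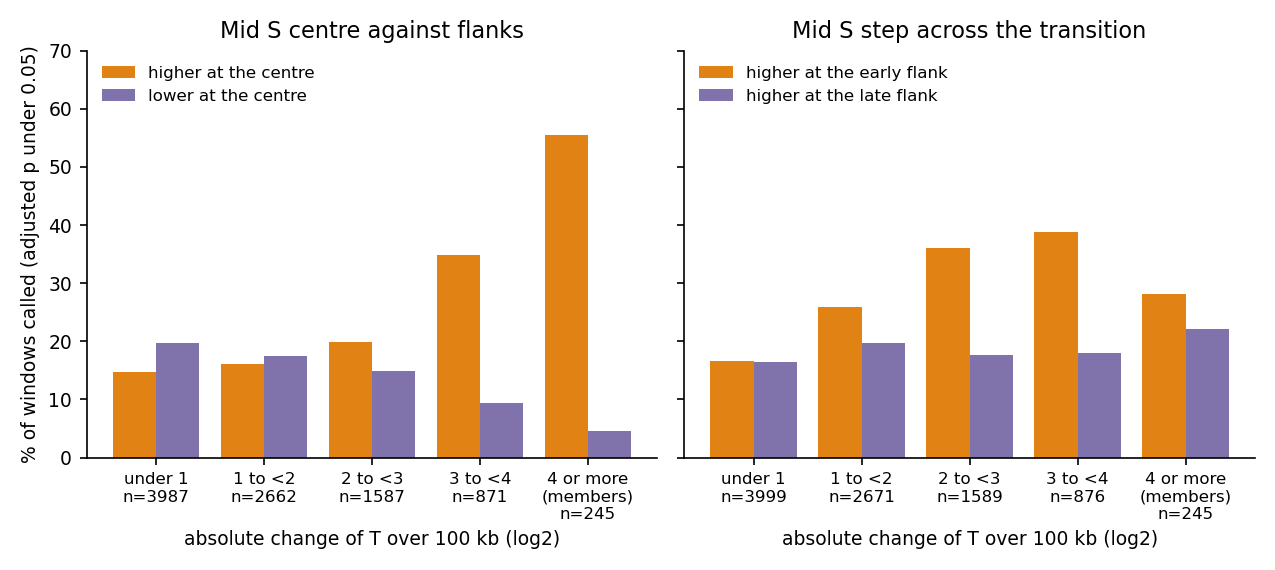
Percent of positions called in Mid S (vertical axis, limma, adjusted p under 0.05) by absolute change of T over 100 kb (horizontal axis, n under each group): left, window against the mean of its flanks; right, early against late flank. The share higher in the window goes from 14.8% at changes under 1 to 55.5% in the members, while the share higher at the early flank is 38.8% at 3 to under 4 and 28.2% in the members.

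Among the 10 steepest transitions, Mid S in the window passed the test as higher in 6. On 3R from 25520001 it was 10.6 and 9.18 RPKM in the window, 5.46 and 4.74 at the early flank and 6.89 and 6.36 at the late flank, a difference of 0.76 ± 0.146 (SE, adjusted p 0.000553 in limma). Both libraries were higher in the window than at either flank. On 3R from 22110001 it was 13.3 and 13.9 RPKM in the window against 6.89 and 8.63, and 10.4 and 8.18, a difference of 0.68 (adjusted p 0.000241 in limma). The steepest transition of all had 0.60 ± 0.164 (SE, adjusted p 0.00837 in limma), and the others were 2L from 8900001 with 0.71, from 5360001 with 0.80 and from 11960001 with 0.53. The call was lost without Mid S replicate 1 for the steepest transition, without either Mid S library on 2L from 5360001 and from 11960001, and with flanks at 30 kb on 2L from 8900001 and from 5360001. In 3 of the 4 that did not pass as higher the window lay on X, with 0.28, 0.29 and 0.09. The 3R window from 19200001 was lower than the mean of its flanks, the bright one included, with -0.82, and with -0.11 at 70 kb it did not pass (adjusted p 0.548 in limma). On 3L from 15460001, the steepest of that arm, Mid S was 11.0 and 12.7 RPKM in the window, 6.89 and 7.17 at the early flank and 5.89 and 5.80 at the late flank, a difference of 0.88.

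The last test compared Mid S with the mean of Early S and Late S in the member window itself. Mid S was higher in 47 of 245 members (19.2%) and lower in 0, against 6.36% and 0.614% of all 53434 windows tested (limma). Those windows overlap and come from all sequences, not only the grid of 4 arms. Among eligible grid windows the share higher was 5.29% at changes of T under 1 and 10.9% at 3 to under 4, with 1.13% and 0% lower. At an unadjusted p under 0.05 the counts were 168 higher and 0 lower (limma). All windows were not counted at that level, so the 168 has no background share. The difference was above 0 in 239 members and in 79.9% of all windows. The median difference was 0.42 over members and 0.22 over all windows, so only the excess over the latter sets members apart in size, and no test of that excess was made. The mean on the log scale lies below the linear mean where Early S and Late S differ, which raises this difference. The number of calls depended on the setting. No call remained, in members or in any window, when any library was left out or without the variance trend. With libraries centred on their medians the number was 0 in members and 17 higher over all windows. It was 61 with a filter on low values, 92 with the replicate block, 92 on the square root scale and 111 after quantile normalization. Over all windows the calls as higher rose as well, from 3401 of 53434. They were 4374 of 48090 with the filter, and 6143, 6502 and 11642 of 53434 with the other settings in that order. The median difference was 0.39 to 0.47 when a library was left out and 0.42 without the trend, but 0.18 with libraries centred, where it was -0.02 over all windows. The smallest adjusted p in the members was 0.0406.

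In most transitions Mid S was the highest fraction over a stretch between the early and the late side. Going from early to late, label of Early S fell to that of Mid S a median of 9.95 kb before the point where Early S equals Late S, and Late S reached Mid S a median of 13.4 kb after it. Both points were found in 89 transitions, and Early S equalled Mid S first in 87 of them. The median distance between the points was 24.7 kb, with quartiles of 17.8 and 30.5 kb, and it was 22.2 kb in replicate 1 and 25.5 kb in replicate 2. The order was the same in both replicates in 81 of 89 transitions, turned in both in 1 and different in 6. The remaining 1, on X from 13910001, has no order in replicate 1, where both points fell in the window without label. These distances depend on how fractions are scaled, since Mid S had the highest medians. With each fraction divided by its median over the 4 arms, the distance was 14.9 kb and the order held in 82 of 90.

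**Figure D5:**
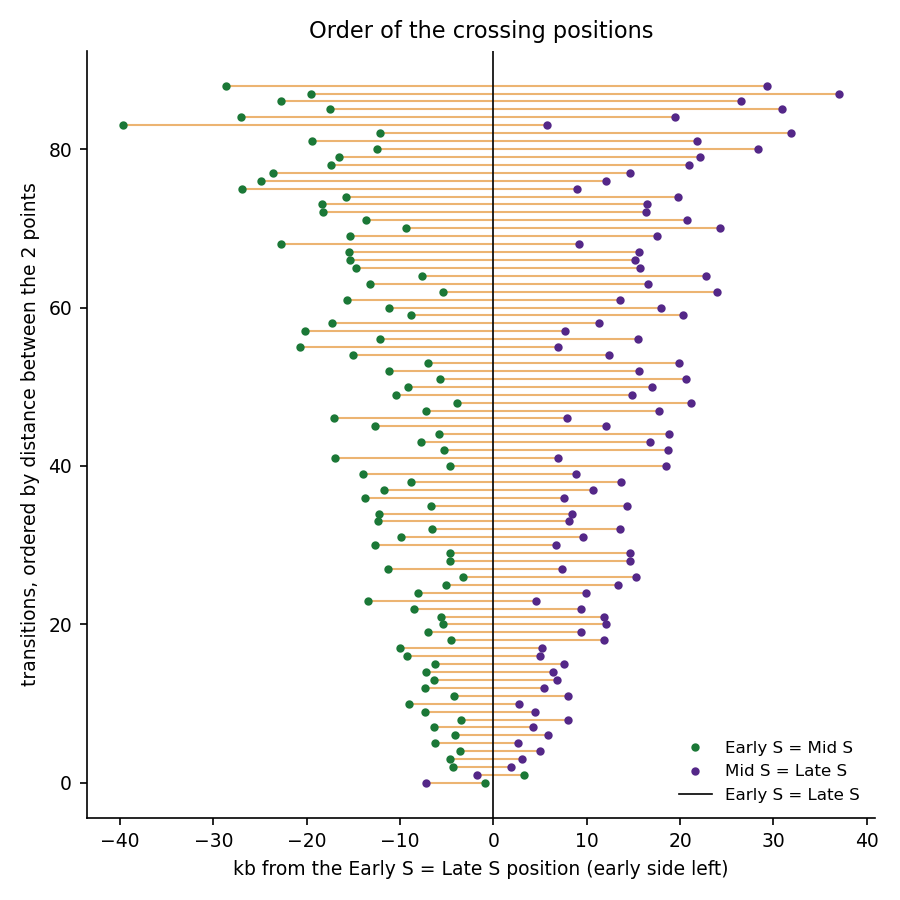
Points where Early S equals Mid S (green) and Mid S equals Late S (purple) in kb from the point where Early S equals Late S (black line, early side left), for 89 transitions ordered by the distance between the 2 points. Early S equals Mid S first in 87 transitions, and the median distance is 24.7 kb.

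The longest such stretches measured 57.9 kb on 3L from 6240001, 56.6 kb on X from 2250001 and 49.2 kb on 3R from 17610001. The first was 40.5 and 25.5 kb in the replicates alone, and the second rested on an early flank with little label, where Mid S held 0.750 and 0.353 RPKM and Late S 0.215 and 0.144. The shortest were on 3R from 19200001 with -6.36 kb, on 2L from 16240001 with -5.05 kb and on X from 21310001 with 6.16 kb. A negative value means that Late S reached Mid S before Early S had fallen to it, so that Mid S was the highest fraction at no point between them. On 3R the value was -3.92 and -6.21 kb in the replicates, whereas on 2L it was -0.958 and 24.5 kb, so that the order on 2L differed between replicates. On X the replicates had 0.649 and 29.5 kb, and the stretch was thus short in replicate 1 alone.

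Counted by window, Mid S was the highest of the 3 combined fractions in 121 of 245 members (49.4%) and the lowest in 0, and it was highest in 21.6% of all eligible windows. It was highest in 121 members in replicate 1 and in 124 in replicate 2. At the flanks Mid S lay between the other fractions in 242 members on the early side and 236 on the late side, and it was highest in 3 and 9. Where T in the window was between -1 and 1, Mid S was highest in 112 of 142 members (78.9%), and in 54.2% of all 3595 eligible windows with such a T. With each fraction divided by its median, 32.2% of members and 12.2% of eligible windows had Mid S highest. These are counts of means, with no test.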

How the data were processed

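Per the file headers, the authors deposited label as RPKM in 10 kb windows every 2.5 kb, as 1 file per library and 1 combined file per fraction; the combined files equalled the read-weighted replicate mean to within 9.95e-14 RPKM. The sources used here do not give aligner, build or filters. Values in full windows were whole multiples of 1 read, within 0.02 reads, in 100% of cases. Members and lists were chosen with earlier results of these data known. Tests used log2(RPKM + 0.0341), the value of 1 read in the deepest library (fold changes of weak windows are understated), in limma 3.58.1 (R 4.3.3; lmFit, eBayes with a trend on mean signal) on all 6 libraries, two-sided, over positions or windows with a read in any library. Prior degrees of freedom were 14.7 (step), 14.3 (window against flanks) and 10.7 (Mid S against the mean of the others), with 3 residual. The fits were run on simulated data with independent windows, which checked the size of a planted Mid S change but not the adjusted p of overlapping or shared windows. Windows up to 20 kb apart formed a transition. Crossing points were sought within 75 kb. Of several, the one nearest the centre of the steepest window was taken, and for Mid S the one nearest the Early S = Late S point. Text names the 10 steepest transitions, the largest per arm and direction, the 3 longest and shortest Mid S stretches, the 3 largest shifts and the threshold's neighbours. Replicates of a fraction differed by more than counting noise (chi-square per degree of freedom 2.18 for Early S, 2.42 for Mid S and 3.14 for Late S). Python 3.11.15, NumPy 2.4.6, pandas 2.3.3 and matplotlib 3.10.9 were used. Alternatives are given in the closing section.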

Additional observations from a re-analysis of the deposited data

How the results depend on the processing

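The number of member windows, 245, depends on the rule: 1121 at a threshold of 3, 20 at 5, 14 with flanks at 30 kb, 513 at 70 kb and 58 with 1 RPKM added in T; without an Early S or Late S library it ran from 157 to 379. Other minima, grid phases, the smaller added value and median scaling gave 238 to 289. The Mid S stretch of 24.7 kb was 14.9 kb with fractions divided by their medians and 22.2 kb in replicate 1; the distance from T of 1 to -1 was 37.8 and 32.0 kb, against 33.6. The shift between replicates was 3.32 kb after a running mean over 5 windows and 3.43 kb with scaled fractions, against 4.23, and 4.20 kb without the transition whose point lay in a window at 0, an alternative chosen after seeing the data. Without 1 library, the step was called in 28 to 84 members toward the early and 25 to 64 toward the late flank, and the window against flanks in 54 to 144 as higher and 6 to 15 as lower, with 70 higher at flanks of 30 kb. Over all positions the calls of both tests rose and fell with the same libraries left out, in both directions. These ranges of member counts therefore do not set members apart from the background. At flanks of 30 kb, 1503 of all 9607 positions were called higher in the window, against 1956 of 9585 at 50 kb. Lone libraries were assumed to vary like the other groups. The test against the mean of Early S and Late S called 111 members as higher and 3 as lower after quantile normalization, with 11642 and 7798 of all 53434 windows. It called 92 as higher with the replicate block and 92 on the square root scale, with 6143 and 6502 of all windows. No member was called without trend or with centring (limma). At an unadjusted p under 0.05, 151 and 41 members were higher, and all windows were not counted at that level. None was called without any 1 library, where the median difference was 0.39 to 0.47. The same replicate numbers were not shown to pair libraries: deviations correlated at 0.0429 (Early S and Mid S), 0.105 (Early S and Late S) and 0.218 (Mid S and Late S), with 2 numbers only, and the replicate block moved no other count by over 1.5 times.

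Among the 10 steepest transitions, 14 of 280 settings turned a sign, 18 lost a call (4 of them with a turned sign) and 7 gained one. The step turned with flanks at 30 kb on X 13350001 (0.12), 2L 11960001 (-2.52, a call) and 3R 22110001 (0.0299). At 30 kb it also turned on 3R 19200001 (-0.57, a call), 2L 8900001 (0.11) and 2L 5360001 (0.15), and at 70 kb on X 9400001 (-0.266). Without 1 library it ran from -0.114 to 0.264 on X 9400001, from -0.595 to 0.0777 on 3R 22110001 (both turned without Mid S replicate 1) and from -0.0592 to 0.0864 on 2L 11960001 (turned without Mid S replicate 2). The window against flanks turned at 30 kb on X 20850001 (-0.24), X 13350001 (-0.34), X 9400001 (-0.21) and 3R 19200001 (0.11). The cause of these turns was not tested. Depth limits T at the flanks most, where Late S at the early flank of members held as few as 2 reads. Mid S, which these tests compare, held at least 7 reads at either flank.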
